A study of Mus musculus with 4 samples.

Results

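The muscle regulatory factors (MRFs) Myod1, Myf5, Myog and Myf6 and the paired-box genes Pax7 and Pax3 were followed in mouse C2C12 myoblasts with and without forced C/EBPβ. These 6 genes were picked out by symbol from 49585 genes in the count files, with earlier results of these data known but no measured value in the rule. All 6 were found, and 5 of them had enough counts to enter a test that covered 15078 genes. The cells are C2C12, a myoblast line of C3H origin, and every library came from proliferating cells in growth conditions. One group (2 libraries) carried the empty retroviral vector pLXSN and the other (2 libraries) a retrovirus for overexpression of C/EBPβ. Both groups were kept in 1200 μg/ml G418 for 7 days, pooled, and grown for another 48 h, with 10% fetal bovine serum stated for the line. The labels do not say whether replicates were separate transductions or cultures, so a p-value here measures the spread between these libraries, which may be technical.

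MRFs are basic helix-loop-helix proteins that bind the E-box DNA motif together with E proteins and switch on muscle genes. In the embryo and in regenerating muscle, Myf5 and Myod1 commit cells to the muscle fate, Myog drives the step to the differentiated fibre, and Myf6 acts in both settings and is the main MRF of mature fibres. Pax3 and Pax7 act upstream of the MRFs in muscle precursors, and Pax7 marks and maintains adult satellite cells. C/EBPβ is a leucine-zipper transcription factor best known from fat, liver and macrophages.

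The MRFs are paralogs, and reads that map to several places were not counted, so the coding sequences were compared for identical runs. Lower-case letters are the sense strand of GENCODE M21 coding sequences (GRCm38), and the longest identical run is shown for the closest pairs.
Myod1 and Myf5: cgcaaggccgccaccatgcgcgagcg
Myod1 and Myog: aaagtgaatgaggccttcgag
Pax7 and Pax3: ctggaagtgtccacccctcttggcca
The first run is 26 bases long and starts at base 331 of the Myod1 coding sequence and base 253 of that of Myf5, in the part that encodes the DNA-contacting basic region. The second is 21 bases long and starts at base 370 in Myod1 and 286 in Myog. The Pax7 and Pax3 run is also 26 bases and starts at base 79 in both. The other 4 MRF pairs shared runs of 11 to 14 bases. Coding lengths were 957 bases for Myod1, 768 for Myf5, 675 for Myog, 729 for Myf6, 1518 for Pax7 and 1455 for Pax3.

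The RefSeq promoter table for GRCm38.p6 matched 3 of the 6 genes: Myog, Myf5 and Pax7. The 250 bases before the RefSeq start are shown for Myog, whose RNA differed most, and for Myf5, whose RNA went the other way. Capitals mark the E-box CANNTG.
Myog: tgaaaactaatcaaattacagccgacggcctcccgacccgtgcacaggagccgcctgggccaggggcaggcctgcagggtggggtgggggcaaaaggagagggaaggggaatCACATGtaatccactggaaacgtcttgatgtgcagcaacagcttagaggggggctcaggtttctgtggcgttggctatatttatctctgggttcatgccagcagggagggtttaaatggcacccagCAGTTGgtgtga
Myf5: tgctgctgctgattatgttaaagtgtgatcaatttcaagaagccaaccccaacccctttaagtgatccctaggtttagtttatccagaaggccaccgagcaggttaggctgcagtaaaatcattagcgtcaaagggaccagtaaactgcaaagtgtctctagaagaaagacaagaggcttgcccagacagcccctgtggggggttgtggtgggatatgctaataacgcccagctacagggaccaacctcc
The Myog window is chr1:134289754-134290003 on the plus strand, and its last 15 bases lie inside the gene as the count files define it. It holds 2 E-boxes, whose first bases lie 138 and 12 bases before the RefSeq start. The Myf5 window is chr10:107486135-107486384 on the minus strand and holds none. The Pax7 window also holds none, and it is not printed because all 250 of its bases lie inside the gene as the count files define it. At least 1 E-box is present in 66.2% of 32851 windows of this length. The paired C/EBP half-sites TTGCNNAA (9.56% of windows), the CCAAT box (33.8%) and TATAAA (12.4%), searched on both strands, had no match in the 3 windows, which says only that these letters are not there.

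The libraries held 37566321 to 40912955 gene-assigned counts, except C/EBPβ replicate 2 with 92027838. Cebpb, the overexpressed gene, stood at 85.0 and 76.8 CPM (the count normalised to library size, with TMM, the trimmed mean of M-values, as the scaling) with the empty vector and at 483 and 473 CPM with C/EBPβ, as labelled. Vector-borne and chromosomal copies were not told apart. Des, Cdh15, Itga7, Ncam1 and Cdh2, the myoblast markers that are not members, were all present, from 116 CPM upwards in every library. Summed over the 7 myoblast markers, Myod1 and Myf5 included, the level was 3017 and 3266 CPM with the empty vector and 1904 and 2087 CPM with C/EBPβ. Of the 5 that are not members 4 fell, and Ncam1, a cell adhesion molecule, rose from 190 and 193 to 301 and 244 CPM (0.51, adjusted p = 0.0105, edgeR), a call that ended with C/EBPβ replicate 1 left out (0.35, adjusted p = 0.0820). The call of Cdh2, N-cadherin (-0.36, adjusted p = 0.0103), ended on leaving out either C/EBPβ library (adjusted p = 0.0573 and 0.0794). Over all tested genes 10.8% were called lower and 14.1% higher, beside 4 and 1 of these 5 markers. Des, Cdh15 and Itga7 are counted again below among the targets of MyoD or myogenin, so those falls are not separate observations. In bulk RNA, fewer cells of a type and less RNA per cell cannot be told apart.

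C/EBPβ cells held much less Myog RNA, slightly less Myod1 RNA, and more Myf5 and Pax7 RNA. Myog was at 14.4% of its empty vector level and Myod1 at 78.1%, while Myf5 was at 152% and Pax7 at 192%. Of the 5 members tested, 2 rose and 2 fell, against 14.1% of all tested genes called higher and 10.8% called lower (24.9% in either direction). Myf6 did not pass the test, and Pax3 had too few counts to be tested. The median log2 fold change of all tested genes was 0.00.

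**Figure D1:**
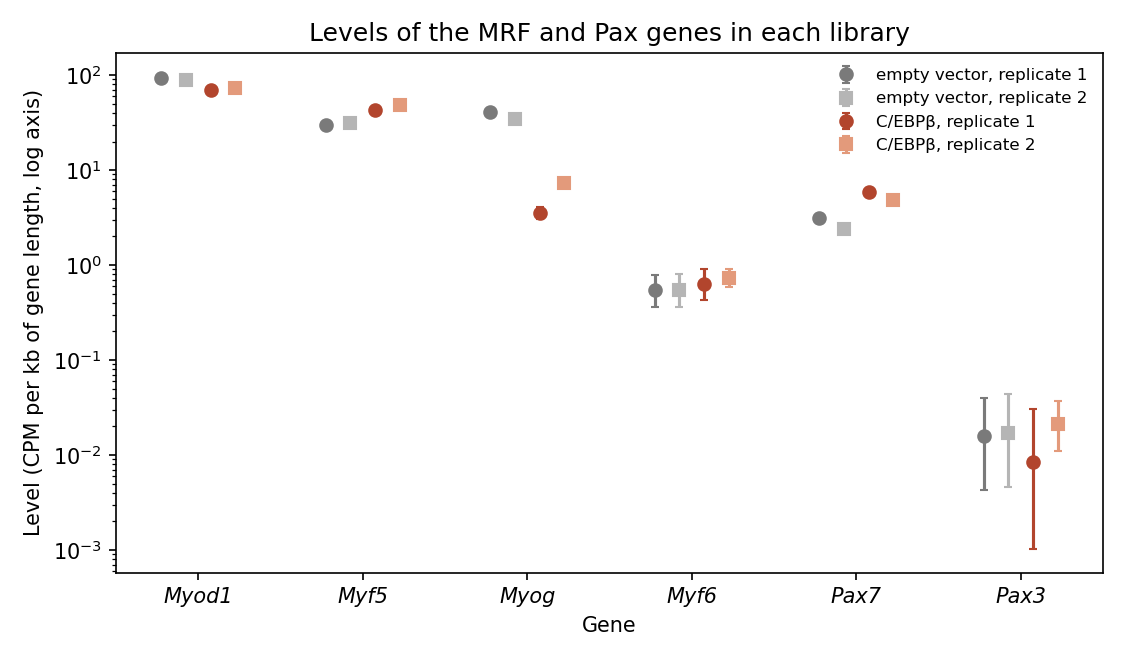
Level of each gene in each library, in CPM per kilobase of gene length on a log axis. Circles and squares are replicates 1 and 2, and bars are exact 95% Poisson intervals of the count. Myod1 was the highest of the 6 genes in every library, and with C/EBPβ Myog fell to the level of Pax7.

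Myod1 (ENSMUSG00000009471), the determination factor that can turn other cells into muscle, is a protein-coding gene of 3 exons on chromosome 7, 46376474 to 46379099, plus strand, GRCm38. It stood at 175 and 166 CPM in empty vector replicates 1 and 2 and at 129 and 137 CPM with C/EBPβ. Both C/EBPβ libraries were below both empty vector libraries, as the groups of 66.2% of all tested genes did not overlap in one direction or the other. The log2 fold change was -0.36 (SE 0.08, adjusted p = 0.0151, n = 2 per group; p-values come from the quasi-likelihood model of edgeR and are adjusted over all tested genes by Benjamini-Hochberg), the smallest difference among the called members. Leaving out C/EBPβ replicate 1 ended the call (-0.32, adjusted p = 0.152, edgeR). Per kilobase of gene length, the level of Myod1 exceeded that of 95.7% of tested genes.

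Myf5 (ENSMUSG00000000435), the earliest MRF in the embryo, lies on chromosome 10 from 107482908 to 107486134 on the minus strand, with 3 exons. Its levels were 61.7 and 64.5 CPM with the empty vector and 90.0 and 101 CPM with C/EBPβ, so it was higher in both C/EBPβ libraries. The log2 fold change was 0.60 (SE 0.09, adjusted p = 0.00179, edgeR). Leaving out any 1 library gave values of 0.51 to 0.68, all called.

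Myog (ENSMUSG00000026459), which encodes myogenin, is a 3-exon gene of the plus strand of chromosome 1, 134289989 to 134292548, and its promoter is the one printed above with 2 E-boxes. Its levels were 61.0 and 51.4 CPM with the empty vector and 5.32 and 10.9 CPM with C/EBPβ. Both C/EBPβ libraries were far below the controls, and C/EBPβ replicate 1 was the lowest. The counts behind the last pair were 203 and 1001, with exact 95% Poisson intervals of 4.61 to 6.11 and 10.2 to 11.6 CPM, so the replicates differed by more than counting error. Such intervals cover counting error only. The log2 fold change was -2.75 (SE 0.27, adjusted p = 2.39e-04, edgeR), larger in size than that of 98.0% of tested genes. It was -3.40 without C/EBPβ replicate 2 and -2.37 without C/EBPβ replicate 1.

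Myf6 (ENSMUSG00000035923), also called MRF4, lies on chromosome 10 from 107492860 to 107494729 on the minus strand, 6726 bases from Myf5. It had 28 and 26 counts with the empty vector and 30 and 84 with C/EBPβ, or 0.681, 0.687, 0.786 and 0.914 CPM. Both C/EBPβ values were the higher ones, but all 4 Poisson intervals overlapped (0.452 to 0.984 CPM in empty vector replicate 1, 0.729 to 1.13 CPM in C/EBPβ replicate 2). The log2 fold change of 0.33 (SE 0.27) did not pass (adjusted p = 0.411, edgeR). From summed counts the ratio of C/EBPβ to empty vector was 1.28, with a 95% counting interval of 0.920 to 1.81, so a difference within that interval was not detectable at this depth.

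Pax7 (ENSMUSG00000028736), the satellite-cell factor, spans chromosome 4 from 139737062 to 139833528 on the minus strand, with 9 exon blocks. It stood at 18.5 and 14.2 CPM with the empty vector and at 34.3 and 28.6 CPM with C/EBPβ, higher in both C/EBPβ libraries. The log2 fold change was 0.94 (SE 0.15, adjusted p = 0.00248, edgeR). With 1 library left out at a time it was 0.76 to 1.14 and called each time. Pax7 had 2 annotated coding transcripts, which the gene counts do not separate.

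Pax3 (ENSMUSG00000004872), the close relative of Pax7 that acts in embryonic muscle precursors and neural crest, lies on chromosome 1 from 78101267 to 78197134 on the minus strand. It was at the edge of detection, with 4 and 4 counts in the control libraries and 2 and 12 under C/EBPβ, and the groups overlapped. These counts equal 0.0972, 0.106, 0.0524 and 0.131 CPM. The ratio from summed counts was 1.06 with a 95% counting interval of 0.416 to 2.92, so no difference was detectable at this depth. It was 0.517 (0.0535 to 2.59) without C/EBPβ replicate 2.

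**Figure D2:**
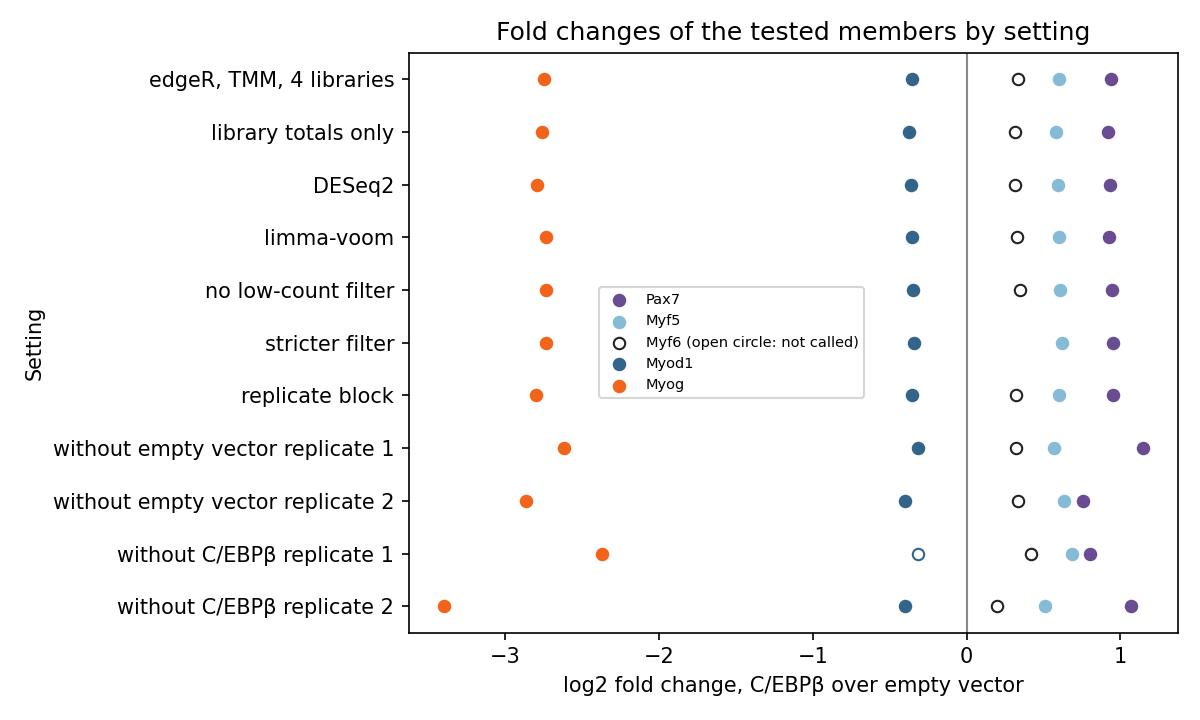
Log2 fold change (x axis, C/EBPβ over empty vector) of the 5 tested members under each processing setting (y axis), with filled circles for an adjusted p under 0.05 and open circles for values not called. Myog stayed between -3.40 and -2.37, and Myod1 was open only without C/EBPβ replicate 1. Myf6 has no value under the stricter filter.

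The order of the genes by level per kilobase differed between the groups. With the empty vector it was Myod1 (91.7 ± 3.61 CPM per kb, mean ± SD, n = 2), Myog (37.6 ± 4.55), Myf5 (30.3 ± 0.964), Pax7 (2.79 ± 0.526), Myf6 (0.548 ± 0.00367) and Pax3 (0.0164 ± 0.000969), and no neighbours in this order overlapped. With C/EBPβ it was Myod1 (71.6 ± 3.04), Myf5 (45.9 ± 3.86), Myog (5.42 ± 2.64), Pax7 (5.37 ± 0.689), Myf6 (0.681 ± 0.0724) and Pax3 (0.0148 ± 0.00893). Here the Myog libraries (3.56 and 7.29 CPM per kb) enclosed the Pax7 libraries (5.86 and 4.88), so these neighbours did not differ beyond their spread. Myf5 and Myog had changed places.

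Shares and ratios inside a library do not depend on the scaling between libraries. With 2 libraries against 2, the exact two-sided permutation test cannot give a p below 0.333, so none of these can pass 0.05. Myog made up 24.7% and 22.2% of the summed per-kilobase level of the 4 MRF genes with the empty vector, and 3.05% and 5.59% with C/EBPβ. Myf5 made up 17.9% and 19.98% with the empty vector, and 37.0% and 37.3% with C/EBPβ. The share of Myod1 was 57.0% and 57.5% against 59.4% and 56.5%, with overlapping groups. Myf6 was at 0.330% and 0.355% against 0.539% and 0.562%. The summed level was 165 and 155 CPM per kb with the empty vector and 117 and 130 CPM per kb with C/EBPβ.

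**Figure D3:**
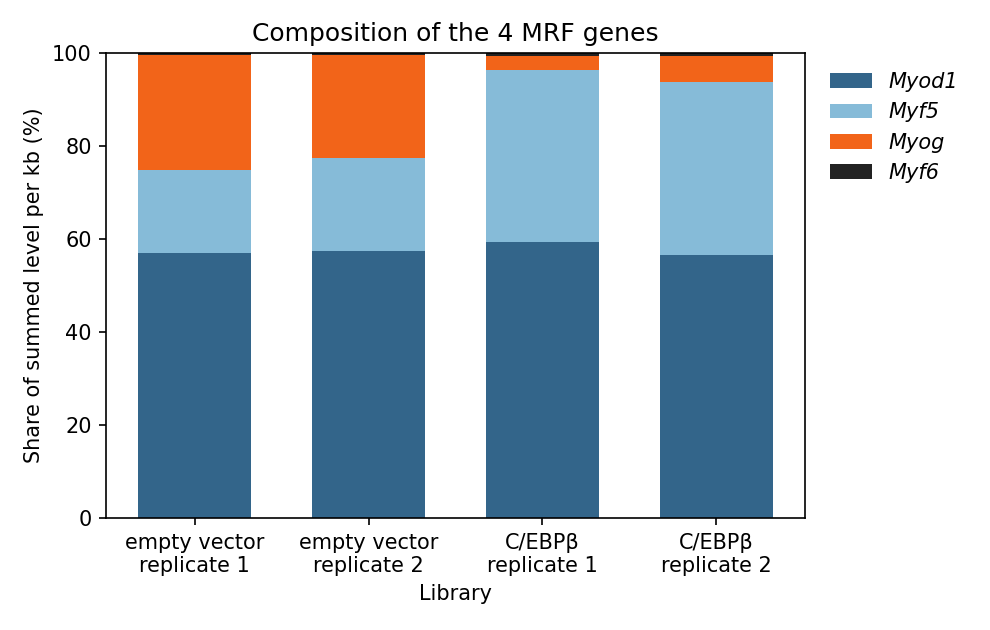
Share (y axis, percent) of each MRF gene in the summed level per kilobase of the 4 MRF genes, one bar per library. The Myog segment shrinks from 24.7% and 22.2% to 3.05% and 5.59%, the Myf5 segment grows from 17.9% and 19.98% to 37.0% and 37.3%, and Myod1 stays between 56.5% and 59.4%.

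The ratio of Myf5 to Myod1 per kilobase was 0.314 and 0.348 with the empty vector and 0.622 and 0.660 with C/EBPβ, a difference of 0.96 on the log2 scale (exact permutation p = 0.333, two-sided). The ratio of Myog to Myod1 was 0.433 and 0.386 with the empty vector and 0.0512 and 0.0988 with C/EBPβ, a log2 difference of -2.52 (-3.00 without C/EBPβ replicate 2). The ratio of Pax7 to Myod1 was 0.0335 and 0.0271 against 0.0843 and 0.0662, a log2 difference of 1.31. None of these 3 ratios overlapped between the groups, and neither did the ratio of Pax7 to Pax3 given next. For single genes in CPM, the groups of 66.2% of all tested genes did not overlap. Pax7 RNA exceeded Pax3 RNA in all libraries, with ratios of 201 and 141 against 691 and 231. The last set rests on 2 to 12 Pax3 counts a library, and its log2 difference of 1.24 was 0.45 without C/EBPβ replicate 1 and 2.03 without C/EBPβ replicate 2. The 4 ratios all gave the same raw p of 0.333, and adjustment over them leaves it at 0.333.

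The genes that MyoD or myogenin are known to switch on in differentiating muscle were mostly lower. Of 38 listed targets 36 could be tested, 32 fell and 1 rose, so 91.7% were called against 24.9% of all tested genes. Their median log2 fold change was -1.75 beside 0.00 over all tested genes. Acta1, skeletal actin, stood at 45.7 and 41.5 CPM with the empty vector and at 11.0 and 12.8 CPM with C/EBPβ (-1.87, adjusted p = 2.37e-05, edgeR). Tnni1, slow troponin I, stood at 14.9 and 13.2 CPM against 2.57 and 2.98 (-2.32, adjusted p = 3.19e-05). The riser was Cdkn1c, a cell cycle inhibitor, from 2.41 and 1.77 to 3.98 and 3.67 CPM (0.86, adjusted p = 0.0168). Its call ended when empty vector replicate 2 was left out (0.66, adjusted p = 0.0784). Myl4, Rb1 and Fgfr4 did not pass, and Cav3 and Mstn had too few counts. The 3 genes without a call were named after their values were seen.

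Partners and antagonists of the MRFs were called in both directions. Among 18 tested of 21 listed, 5 rose and 4 fell (median 0.12), where 14.1% of all tested genes were called higher and 10.8% lower. The list had 50% of its tested genes called, against 24.9% of all. Snai1, a zinc-finger repressor that competes for E-boxes, stood at 28.0 and 23.4 CPM with the empty vector and at 80.3 and 64.6 CPM with C/EBPβ (1.49, adjusted p = 1.42e-04, edgeR). Id4, an inhibitor that binds E proteins, rose from 0.729 and 0.529 to 4.06 and 1.99 CPM (2.21, adjusted p = 0.00438). The other risers were Id1 (0.85, adjusted p = 0.00679, edgeR), Id3 (0.97, adjusted p = 0.0107) and Snai2 (0.63, adjusted p = 0.0246). Id2 did not pass (0.19, adjusted p = 0.280). Msc, the repressor musculin, fell from 18.1 and 20.9 to 4.61 and 7.22 CPM (-1.69, adjusted p = 5.23e-04). Heyl, a Notch-induced repressor, fell from 9.80 and 12.03 to 1.78 and 3.58 CPM (-1.96, and -2.61 without C/EBPβ replicate 2). Hes1 (-0.75, adjusted p = 0.00171, edgeR) and Hey1 (-0.66, adjusted p = 0.0215) were also called lower. The E proteins Tcf3, Tcf4 and Tcf12, the binding partners of the MRFs, had log2 fold changes of -0.21, 0.14 and -0.14 and did not pass. The E proteins, Id1, Id2, Id3, Snai2, Hes1 and Hey1 were singled out after their values were seen.

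Regulators upstream of the MRF genes were also split, 5 rising and 5 falling among 23 tested of 30 listed (median -0.03), or 43.5% called against 24.9% of all tested genes. Mef2c, a MADS-box partner of myogenin, fell from 6.22 and 7.03 to 1.10 and 1.51 CPM (-2.30, adjusted p = 1.51e-04, edgeR), and Klf5, a zinc-finger factor, from 34.5 and 35.9 to 14.5 and 19.99 CPM (-1.02, adjusted p = 0.00151). Foxc1, a forkhead factor of the paraxial mesoderm, rose from 32.8 and 28.3 to 74.2 and 64.8 CPM (1.18, adjusted p = 1.71e-04). Gli2, a Hedgehog effector, had 1 count in each empty vector library and 121 in all with C/EBPβ, a ratio of 36.7 (95% counting interval 9.95 to 307; adjusted p = 2.59e-04).

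Genes linked to Pax3 and Pax7 in muscle precursors were called in both directions. Of 25 listed, 22 were tested, 4 rose and 6 fell (median -0.23, or 0.03 over the 19 that passed the stricter filter of 5 CPM in 2 libraries, where 3 fell). The called share was 45.5%, against 24.9% of all tested genes. Id2, Id3 and Heyl were also counted among the partners and antagonists, and Fgfr4 and Cdh15 among the MyoD and myogenin targets. The called shares of these lists are therefore not fully separate observations. Hgf, the ligand of the Met receptor, rose from 29.0 and 27.4 to 217 and 193 CPM (2.86, adjusted p = 1.89e-06, edgeR). Sdc3, a syndecan of satellite cells, rose from 103 and 76.9 to 340 and 221 CPM (1.64, adjusted p = 7.87e-04). Tenm4, a teneurin, fell from 1.73 and 2.91 to 0.131 and 0.218 CPM (-3.60, adjusted p = 3.59e-04). Cdh15, M-cadherin, which also stands in the MyoD target list, fell from 451 and 530 to 169 and 243 CPM (-1.25, adjusted p = 0.00100). The difference between this list and the MyoD and myogenin targets was not tested.

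All 28 chromatin cofactors of the MRFs and Pax proteins could be tested, and 4 fell and 0 rose by edgeR (median 0.07). At an unadjusted p under 0.05 the counts were 7 lower and 6 higher. DESeq2 called 4 lower and 2 higher, and limma-voom 4 lower and 0 higher. Hdac9, a class IIa deacetylase, fell from 7.27 and 8.11 to 4.82 and 5.12 CPM (-0.63, adjusted p = 0.0146, edgeR), a call that ended on leaving out empty vector replicate 2 (adjusted p = 0.0614). Kdm1a, a histone demethylase, fell from 186 and 200 to 145 and 157 CPM (-0.36, adjusted p = 0.0183). Its adjusted p was 0.0517 with empty vector replicate 2 left out and 0.175 with C/EBPβ replicate 1 left out. The list had 14.3% of its genes called, below the 24.9% of all tested genes. Without empty vector replicate 2 its calls were 1 lower and 4 higher, with C/EBPβ replicate 1 left out there was 1 lower, and with C/EBPβ replicate 2 left out there were 2 higher.

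**Figure D4:**
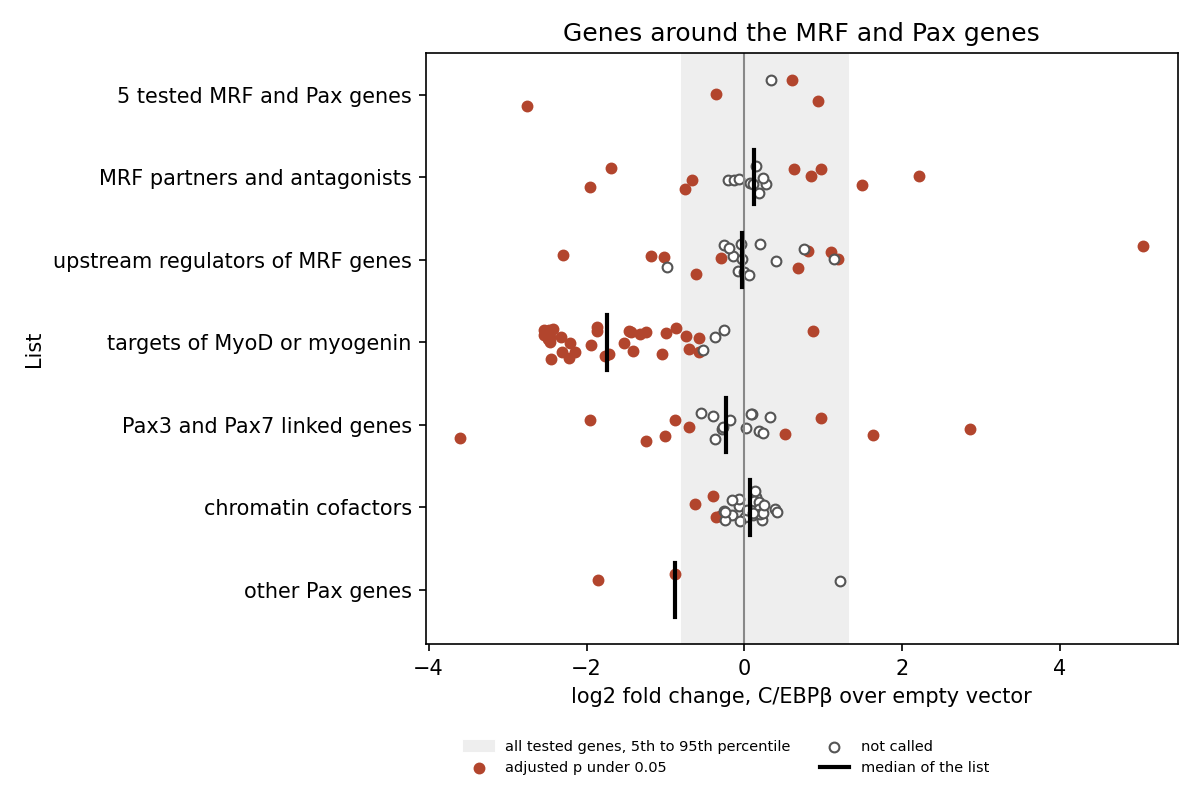
Log2 fold change (x axis, C/EBPβ over empty vector) of each tested gene of the 6 lists and of the 5 tested members (y axis), with filled points for an adjusted p under 0.05, black bars for list medians and a grey band for the 5th to 95th percentile of all tested genes. The MyoD and myogenin targets lie mostly left of 0 (median -1.75), and the point far right is Gli2, a fitted value resting on 2 control counts.

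The other Pax genes were low. Pax8, known from thyroid and kidney, stood at 1.82 and 1.67 CPM with the empty vector and 0.393 and 0.533 CPM with C/EBPβ (-1.86, adjusted p = 0.00152, edgeR). Pax5, the B-cell factor, stood at 2.82 and 3.01 against 1.86 and 1.38 CPM (-0.88, adjusted p = 0.0213). Its adjusted p became 0.0658, 0.0849 and 0.128 on leaving out empty vector replicate 1, empty vector replicate 2 and C/EBPβ replicate 2. Pax6, the eye and brain factor, had 16 and 6 counts against 31 and 49. It stood at 0.389 and 0.159 against 0.813 and 0.533 CPM (1.21, adjusted p = 0.0869, edgeR). It passed when C/EBPβ replicate 2 was left out (1.54, adjusted p = 0.0232) and when genes of low counts stayed in the fit (adjusted p = 0.0120). The log2 fold change was 2.01 with empty vector replicate 1 left out (adjusted p = 0.0694) and 0.72 with empty vector replicate 2 left out (adjusted p = 0.330). Pax4 had 1 count in the 4 libraries and Pax9 had 2, and Pax1 and Pax2 had 0. Of the 3 other Pax genes tested, 2 fell and 0 rose by edgeR, against 10.8% lower and 14.1% higher among all tested genes. DESeq2 and limma-voom, run on the same 4 libraries, gave the same counts. At an unadjusted p under 0.05 by edgeR, 1 of the 3 was higher.

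Genes next to the members on the chromosome had their own values. Ppfia4, a liprin gene 4235 bases beyond Myog, fell from 3.50 and 4.47 to 1.07 and 1.77 CPM (-1.43, adjusted p = 0.00499, edgeR), while Tmem183a, 53549 bases away, stood at 137 and 131 against 107 and 118 CPM (-0.25, adjusted p = 0.0636). On the other side of Myog, Adora1, an adenosine receptor gene, had 12 and 8 counts against 2 and 2, too few for the test. Beyond Myf5 and Myf6, Ptprq did not pass (log2 fold change -0.09, adjusted p = 0.801), and Otogl had at most 12 counts a library. Around Myod1, Otog, a gene of the inner ear matrix, had 38 and 37 counts against 9 and 37. It stood at 0.924 and 0.978 against 0.236 and 0.403 CPM (-1.47, adjusted p = 0.0124, edgeR). Leaving out either empty vector library ended the call (log2 fold changes -1.52 and -1.44). Sergef (-0.20, adjusted p = 0.332) and 1700025L06Rik (-0.22, adjusted p = 0.623) did not pass, and Kcnc1 had at most 6 counts a library. Tas1r2, 66782 bases from Pax7, did not pass (log2 fold change -0.05, adjusted p = 0.891), and its sign turned with empty vector replicate 2 left out (0.14) or C/EBPβ replicate 1 left out (0.07). Sgpp2, 113211 bases from Pax3, had 4 and 0 counts against 15 and 30. It stood at 0.0972 and 0 against 0.393 and 0.327 CPM (adjusted p = 0.0264, edgeR). The adjusted p was 0.0887 by DESeq2, and 0.105 by edgeR with empty vector replicate 2 left out. The remaining neighbours, among the nearest 2 on each side, had at most 1 count in any library.

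For each called member the 3 genes with the most similar profile were found by Euclidean distance between log2 CPM centred over the 4 libraries, among genes whose mean reached 5 CPM. Nearest to Myog were Tnnc2, fast troponin C (distance 0.30), Adgrl3, a latrophilin (0.42), and Mybph, a myosin-binding protein (0.43). Tnnc2 stood at 8.78 and 8.59 CPM with the empty vector and at 0.970 and 1.96 CPM with C/EBPβ. Like Myog, these 3 genes were lower in C/EBPβ replicate 1 than in replicate 2, which choosing them by likeness over these libraries favours. Most listed targets of MyoD or myogenin had the same order, and Cdkn1c and Fgfr4 had the reverse. The log2 fold changes of Tnnc2 and Mybph, -2.48 and -2.42, were -3.16 and -3.02 without C/EBPβ replicate 2. Tnnc2 and Mybph are also on the target list, and Adgrl3 is not.

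Nearest to Pax7 were Pak3, a kinase (0.09), Gulp1, an engulfment adaptor (0.10), and Hspb6, a small heat shock protein (0.10). Hspb6 stood at 42.3 and 33.7 CPM against 86.7 and 68.8. Nearest to Myf5 were Chst15 (0.04), Idh1 (0.05) and Cpt1a (0.06), the last pair being metabolic enzymes. Cpt1a stood at 98.4 and 102 CPM against 149 and 158. Nearest to Myod1 were Pcmt1, Gtf3c6 and Rgmb (each 0.02). As they were picked for likeness over these same libraries, a shared response to leaving 1 out is no separate observation. Like that of Myod1, their calls ended with C/EBPβ replicate 1 left out (adjusted p = 0.195, 0.172 and 0.239). Those of Gtf3c6 and Rgmb also ended on leaving out empty vector replicate 1 (adjusted p = 0.0533 and 0.0948) or C/EBPβ replicate 2 (adjusted p = 0.0545 and 0.0584).

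Pax3 and Pax7 are also expressed in neural crest, whose defining markers Sox10 and Foxd3 had 0 counts in all 4 libraries. The summed level of the 7 neural crest and Schwann markers was 28.3 and 35.4 CPM with the empty vector and 3.01 and 5.13 CPM with C/EBPβ. Ngfr stood at 11.3 and 12.03 against 0.183 and 0.718 CPM, and Erbb3 at 15.9 and 21.9 against 1.31 and 2.96 CPM. Leukocyte markers summed to 21.5 and 19.4 against 38.0 and 39.3 CPM, with 3 of 11 (Adgre1, Tyrobp and Itgam) at 0 in every library. Of 5 leukocyte markers tested 4 rose, where 14.1% of all tested genes were called higher. The risers were Lyz2, lysozyme (0.146 and 0.0529 against 7.497 and 4.88 CPM), Cd14, Csf1r and Cd74. Most of the leukocyte sum was Cd14 (15.3 and 13.9 against 21.99 and 25.9 CPM). Cd68 did not pass (0.33, adjusted p = 0.138, edgeR), and Ptprc had 2 and 2 counts against 0 and 1. The call of Csf1r ended with empty vector replicate 2 left out (0.89, from 1.33; adjusted p = 0.0987), and that of Cd74 on leaving out either empty vector library (adjusted p = 0.0552 and 0.0862). Endothelial markers summed to 0.705 and 0.529 against 1.21 and 1.24 CPM, with 1 of 7 (Emcn) at 0. Of 2 endothelial markers tested 1 rose, Vwf (1.82, adjusted p = 0.00800, edgeR), where 14.1% of all tested genes were called higher. The call of Vwf ended with empty vector replicate 2 left out (1.56).

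Fibroblast markers summed to 439 and 382 against 427 and 374 CPM, with 0 of 7 at 0 in every library. Most of that sum was Ly6a (321 and 286 against 288 and 251 CPM), which did not pass (-0.17, adjusted p = 0.264). Of the 6 fibroblast markers tested 3 rose and 1 fell, against 14.1% higher and 10.8% lower among all tested genes. Pdgfra, a growth factor receptor, rose from 10.5 and 9.44 to 69.9 and 48.3 CPM (2.57, adjusted p = 4.04e-05, edgeR). Dpt rose from 0.194 and 0.185 to 1.23 and 1.12 CPM (2.61, adjusted p = 7.33e-04) and Pi16 from 0.972 and 0.925 to 2.20 and 2.60 CPM (1.35, adjusted p = 0.00319). Cd34 fell from 86.8 and 68.1 to 40.7 and 54.4 CPM (-0.70, adjusted p = 0.0122), a call that ended with empty vector replicate 1 left out (-0.51, adjusted p = 0.0751). Adipocyte markers summed to 0.243 and 0.132 against 9.96 and 5.51 CPM, with 1 of 5 (Lep) at 0, and the 1 tested, Fabp4, a fatty acid carrier, rose (0.243 and 0.106 against 9.38 and 5.31 CPM, adjusted p = 9.63e-05, edgeR). The single markers were named after their values were seen. The part of the levels of all these marker lists in the differences of the MRF and Pax genes was not tested.

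In the authors' deposited table of their own comparison, 26.0% of the genes with an adjusted p were under 0.05, and the members had the same directions where both gave a call. That table may rest on the same libraries, so the shared directions cannot be taken as a separate observation. That table lists log2 fold changes of -2.66 for Myog (adjusted p = 7.93e-13), -0.40 for Myod1 (adjusted p = 4.71e-04), 0.55 for Myf5 (adjusted p = 3.19e-04) and 0.90 for Pax7 (adjusted p = 2.01e-09). It lists 0.26 for Myf6 (adjusted p = 0.743), and -0.06 for Pax3 with no adjusted p. The base mean of Myog in the authors' deposited table was 28421, against a DESeq2 base mean of 1554 over the 4 libraries used here, a ratio of 18.3. Over 11413 genes with a base mean above 100 the median ratio was 0.925, from 0.643 at the 5th to 1.53 at the 95th percentile, and that of Myog exceeded 99.7% of them. The ratio was 1.32 for Pax7, 1.07 for Myod1 and 0.767 for Myf5. The sources used here do not name the libraries behind that base mean.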

How the data were processed

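Messenger RNA of 4 libraries of proliferating C2C12 cells was measured by strand-specific paired-end sequencing. The authors deposited raw counts per gene, assigned with featureCounts 1.5.1 in reverse-stranded mode on GENCODE M12, per the file headers. The submitters' processing notes name HISAT2 2.0.4, GRCm38, featureCounts 1.4.6 and DESeq2, and the featureCounts versions differ. The authors' deposited table holds a base mean (signal), log2 fold changes with standard errors (log2), a statistic (score) and p-values, and was described, not retested.

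Symbols from the GENCODE M21 reference (GRCm38) matched 49326 of 49585 identifiers. Genes were filtered with filterByExpr (minimum count 10, minimum total 15) and compared with edgeR 4.0.16 (quasi-likelihood, TMM) in R 4.3.3, with p-values adjusted by Benjamini-Hochberg and calls at 0.05. Positive fold changes mean more RNA with C/EBPβ, and the SE is the log2 fold change over the root of its F statistic. CPM use the TMM-scaled totals of tested genes, and levels per kilobase divide them by the count files' gene length. The alternatives were library totals, DESeq2 1.42.0, limma-voom (limma 3.58.1), other filters, a replicate block and leaving out each library.

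The members and lists were chosen with earlier results of these data known. Named genes were the 6 members, Cebpb, up to 2 called genes in each direction per list by adjusted p (with none called, the 2 highest in mean CPM), the 3 nearest profiles of each called member (predicted genes left out), the 2 nearest genes on each side, and other Pax genes with a count. Counts of a replicate pair differed by more than sampling noise, with a chi-square per degree of freedom of 22.8 (empty vector) and 25.1 (C/EBPβ), so all 4 libraries were used. No per-sample column was left unused.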

Additional observations from a re-analysis of the deposited data

How the results depend on the processing

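Myog, Myf5 and Pax7 kept their direction and call under every alternative run, and Myf6 kept its direction and stayed uncalled wherever it could be tested. Leaving out 1 library at a time, the log2 fold change of Myod1 was -0.40 to -0.32 and lost its call once, without C/EBPβ replicate 1. Genes called numbered 2493 to 3462 in either direction and 966 to 1386 lower, against 3759 and 1630, both lowest without C/EBPβ replicate 1. In such fits the lone library of a group is assumed to vary like the other group. Also with 1 library left out, rising MyoD and myogenin targets numbered 0 to 1, rising chromatin cofactors 0 to 4 and falling ones 1 to 4, and the log2 fold change of Tas1r2 ran from -0.23 to 0.14. The difference in the Myod1 share of the MRF genes, 0.73 percentage points in the 4 libraries, ran from -0.72 to 2.18 and turned to -2.63 when levels were not divided by length. On that scale the Myog share differed by -16.0 points (-19.1 per length) and the Myf6 share by 0.12 (0.21 per length). With the stricter filter 0 targets rose, of 27 tested, and 3 Pax-linked genes fell. DESeq2 called 2 rising chromatin cofactors. With the replicate block the count was also 2, 4536 genes were called in all, and Pax6 passed (adjusted p = 0.0105). The labels do not say that replicate numbers pair libraries. Same-numbered libraries deviated with a correlation of 0.147 over 15078 genes, which with 2 pairs does not settle it. The cause of these shifts was not tested. With 2 to 84 counts a library, depth limits Pax3 and Myf6.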
